A study of Homo sapiens with 6 samples.

Results

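Cadherins and protocadherins, the calcium-dependent adhesion proteins of the cell surface, were followed in A375 melanoma cells that had lost the translation factor eIF4B and were treated with the BRAF inhibitor vemurafenib. The genes were all those with a probe set carrying that gene's symbol alone, where the symbol was CDH or PCDH with a number or a member of the PCDHA, PCDHB or PCDHG clusters, without antisense and pseudogene symbols. This gave 65 of the 19775 genes measured, from 115 probe sets. Each gene was represented by its probe set with the highest mean log2 intensity over the 6 arrays, and the 36 genes with a mean of at least 5 were tested among 13506 such genes. The other 29 were too dim for the test.

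Gene expression was measured on 6 human Affymetrix U133 Plus 2.0 arrays, 1 for each combination of line and treatment. A375 is an established melanoma line with an activated BRAF kinase. In both lines the gene for eIF4B, a cofactor of the translation initiation helicase, had been knocked out by CRISPR, so unedited cells were not among the samples. The KO/LacZ line, the knockout, then received LacZ by lentivirus as a negative control, and the KO/eIF4B line, the rescued line, received wild-type eIF4B from the lentiviral vector. Each line was treated with DMSO vehicle, with 10 µM vemurafenib for 6 h or with 10 µM vemurafenib for 18 h. The labels give neither the duration of the vehicle treatment nor whether the knockout is a clone. They do not say that separate cultures were grown for the arrays, so a p-value here reflects differences among the 6 arrays, which may be technical. The error behind the drug and line comparisons is how far the lines disagree in their drug differences. A real difference in response between the lines would enter it too.

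Classical cadherins bind their like on neighbouring cells and link to actin through catenins. Type I members include E-cadherin and N-cadherin, and the loss of E-cadherin with a gain of N-cadherin is a known feature of melanoma. Protocadherins lack the catenin-binding tail. Most of the non-clustered ones act in neural development, while the alpha, beta and gamma genes lie in tandem clusters on chromosome 5 and give neurons distinct surface identities. The beta genes have their own complete coding exon each, whereas alpha and gamma transcripts join a variable exon to constant exons shared by their cluster.

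Promoter windows from 250 bases before to 50 bases after the annotated start, from RefSeq on GRCh38.p14, were matched for 51 of the 65 genes. The 9-base sequence GGTGGCGCT, searched on both strands (reverse complement AGCGCCACC) and chosen after the windows had been read, stood in 12 of the 13 beta cluster windows (92.3%). PCDHB1 was the exception. It was in 0 of 6 alpha, 0 of 11 gamma, 0 of 10 non-clustered protocadherin, 0 of 8 type II, 0 of 1 type I and 0 of 2 other cadherin windows, and in 169 of 27305 windows of the whole table (0.619%). Its first base lay at positions from -84 to -2 relative to the start. The match describes the letters in these windows and shows no bound site. The next 8 sequences, 5′ to 3′ on the plus strand with the shared sequence in capitals, show the windows' common core. The first 5 belong to the beta genes with the largest differences at 18 h, and the last 3 to genes with small ones.
PCDHB5 (chr5:141135175-141135214): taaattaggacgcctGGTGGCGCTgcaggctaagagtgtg
PCDHB7 (chr5:141172562-141172601): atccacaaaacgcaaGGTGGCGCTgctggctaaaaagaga
PCDHB8 (chr5:141177773-141177812): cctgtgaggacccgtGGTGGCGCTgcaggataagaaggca
PCDHB14 (chr5:141223259-141223298): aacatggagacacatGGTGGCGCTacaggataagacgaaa
PCDHB15 (chr5:141245310-141245349): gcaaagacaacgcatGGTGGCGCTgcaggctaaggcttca
PCDHB2 (chr5:141094540-141094579): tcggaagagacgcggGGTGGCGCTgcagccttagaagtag
PCDHB3 (chr5:141100389-141100428): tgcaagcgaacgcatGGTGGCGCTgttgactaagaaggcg
PCDHB13 (chr5:141213861-141213900): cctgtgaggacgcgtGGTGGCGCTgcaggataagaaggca
PCDHB7 was the only tested cadherin or protocadherin called between the lines, a call lost whichever array was left out. Its whole window shows the shared sequence in its place ahead of the start.
PCDHB7 (chr5:141172394-141172693): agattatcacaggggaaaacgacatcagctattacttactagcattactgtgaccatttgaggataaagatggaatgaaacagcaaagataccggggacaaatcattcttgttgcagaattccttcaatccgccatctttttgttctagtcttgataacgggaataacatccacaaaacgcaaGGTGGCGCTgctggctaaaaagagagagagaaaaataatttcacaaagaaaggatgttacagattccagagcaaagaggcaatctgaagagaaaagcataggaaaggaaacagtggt
PCDHB2, PCDHB3 and PCDHB13, with small rises at 18 h, carried the same core as the 5 genes with the largest differences. The part of this sequence in the response was not tested.

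Array medians lay between 5.196 and 5.221 log2 units. The brightest EIF4B probe set stood at 8.40, 8.53 and 8.53 in KO/LacZ cells (vehicle, 6 h and 18 h), against 10.07, 10.14 and 10.28 in KO/eIF4B cells, and its other 2 probe sets overlapped between the lines. Of the melanocyte and melanoma markers, 7 of 9 measured had a mean of at least 5, SOX10 and MITF among them, and MLANA and TYRP1 did not. Markers of other cell types were partly present: 5 of 9 epithelial, 5 of 7 fibroblast, 3 of 6 endothelial and 3 of 5 blood cell markers measured had a mean of at least 5. The defining markers EPCAM (2.60) and PTPRC (3.05) did not, while KRT18 (12.23), KRT14 (9.72), KRT8 (8.34), HBB (6.65) and LYZ (6.64) did.

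The question of the drug comparisons was how vemurafenib changed expression over both lines. At 18 h, 17 of the 36 tested cadherin and protocadherin genes rose (47.2%) and 1 fell (2.78%). Of all 13506 genes, 28.1% rose and 23.3% fell, so that 51.4% were called in either direction. The median difference from vehicle was 0.268 log2 units over the 36 genes and 0.009 over all genes tested. Over all 65 genes, dim ones included, the median was 0.029, against -0.016 over all 19775. Differences are log2 units of intensity, where 1 is a 2-fold change, averaged over both lines. They come from limma's additive model of line and treatment, with p-values adjusted by Benjamini-Hochberg over all genes tested. In cultured bulk samples, fewer cells of a kind and less RNA per cell cannot be told apart. Of 5 tested fibroblast markers, 3 rose at 18 h (LUM by 2.49, DCN by 1.78 and ACTA2 by 1.72), and COL1A1 (0.02) and THY1 (-0.10) were not called. The mean of the 7 fibroblast markers was 6.62 and 6.85 on the 18 h arrays (KO/LacZ and KO/eIF4B) and 5.73 and 6.02 on the vehicle arrays, with FAP and COL1A2 below 5 in mean. Of 5 tested epithelial markers, 2 rose (KRT14 by 1.45 and KRT8 by 0.39) and 1 fell (KRT18, by 0.78), and the mean of all 9 was 6.55 and 6.50 at 18 h and 6.41 and 6.30 under vehicle. Of 3 tested blood cell markers 1 fell, LYZ by 0.86, and of 3 tested endothelial markers 1 rose. The means were 5.10 and 5.20 at 18 h and 5.32 and 5.44 under vehicle for the blood cell markers, and 4.64 and 4.72 at 18 h and 4.92 and 5.02 under vehicle for the endothelial ones. The part of these markers in the cadherin results was not tested.

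**Figure D1:**
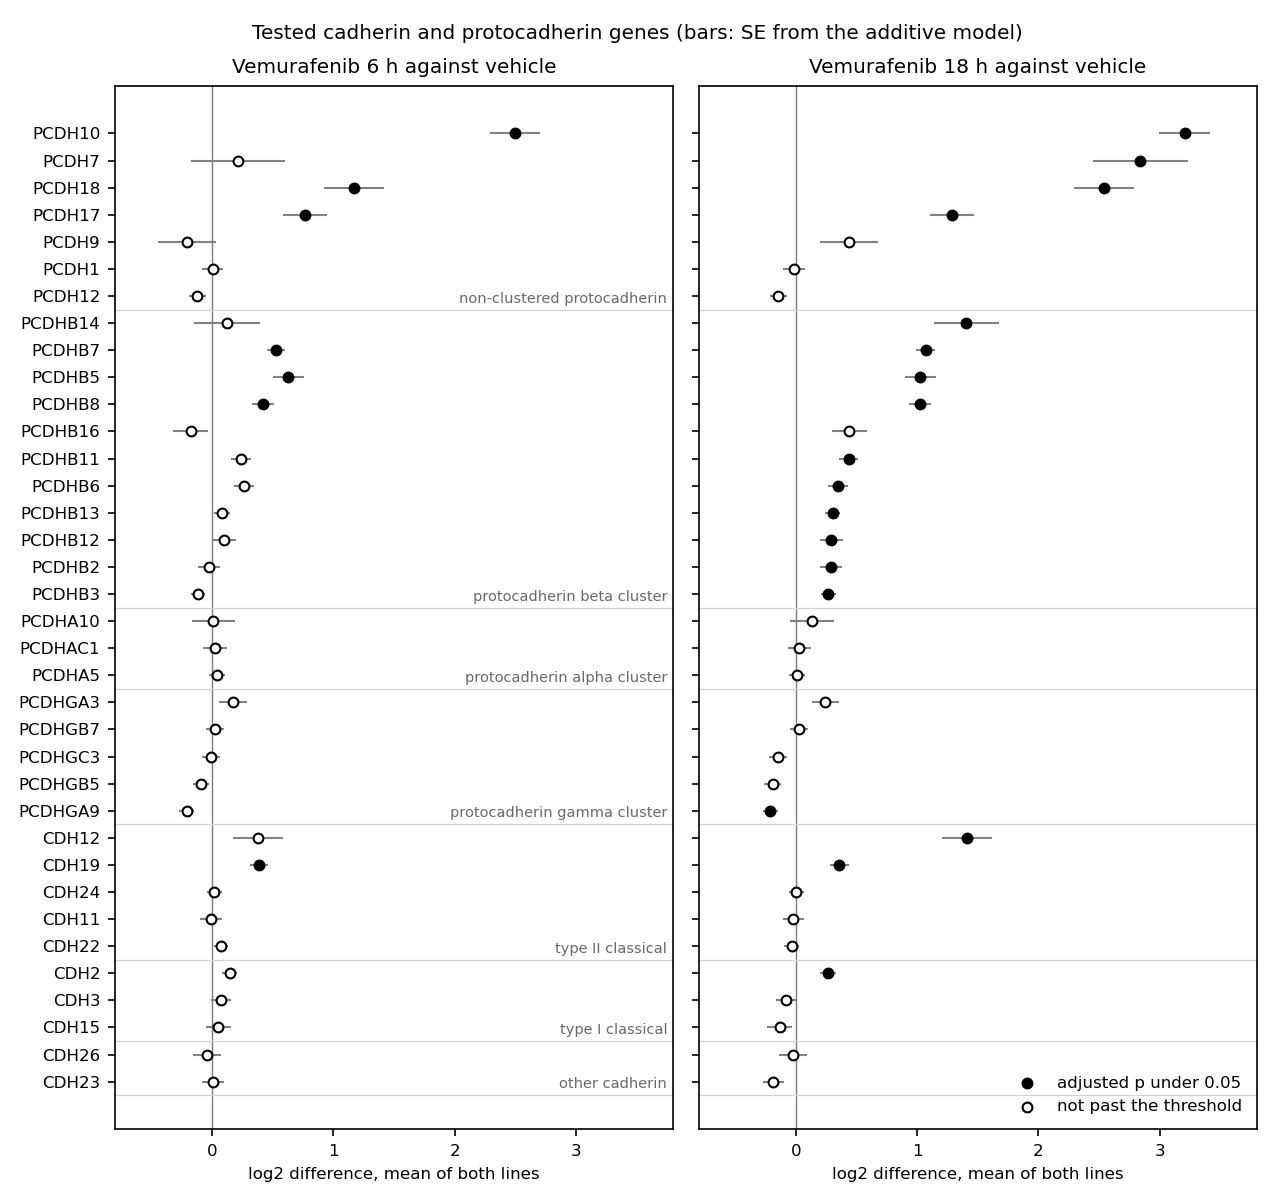
Log2 differences of the 36 tested genes at 6 h (left) and 18 h (right) of vemurafenib against vehicle, averaged over both lines, with bars for the standard error and filled points for adjusted p under 0.05. At 18 h PCDH10 lies farthest to the right at 3.20, all 11 beta cluster genes lie right of 0, PCDH1 and PCDH12 lie at -0.01 and -0.14, and the alpha and gamma genes stay between -0.21 and 0.24.

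Among 7 tested non-clustered protocadherins, 4 rose at 18 h and 0 fell, and these held the largest 3 differences of all 36 genes. PCDH10, whose cytoplasmic tail recruits the WAVE actin-regulating complex, had 4.57, 7.38 and 8.21 log2 units in KO/LacZ cells under vehicle, 6 h and 18 h. In KO/eIF4B cells it had 4.97, 7.14 and 7.73. Every drug array stood above both vehicle arrays. The differences were 2.49 at 6 h (SE 0.207, limma adjusted p = 0.00332) and 3.20 at 18 h (SE 0.207, limma adjusted p = 0.000427). The step between 6 h and 18 h, 0.71, missed the threshold (limma adjusted p = 0.0514). PCDH10 passed the filter on dim genes through its treated arrays, since its vehicle mean was below 5.

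PCDH18, a delta protocadherin that binds the adaptor Dab1 in mice, had 5.12, 6.54 and 8.21 in KO/LacZ cells under vehicle, 6 h and 18 h, against 5.89, 6.80 and 7.88 in KO/eIF4B cells. Levels were ordered vehicle, 6 h, 18 h in each line, with no overlap between treatments. It rose by 1.17 at 6 h (limma adjusted p = 0.0368) and by 2.54 at 18 h (SE 0.247, limma adjusted p = 0.00109), and by 1.37 between 6 h and 18 h (limma adjusted p = 0.0136). A second probe set for it rose by 0.57 at 18 h but was not called at 6 h (0.14, limma adjusted p = 0.286 with every probe set tested). PCDH17, which like PCDH10 recruits the WAVE complex, had 6.96, 7.80 and 8.62 in KO/LacZ cells and 7.15, 7.84 and 8.06 in KO/eIF4B cells. Its treated arrays were all above the vehicle arrays. The rise was 0.76 at 6 h (limma adjusted p = 0.0499) and 1.29 at 18 h (SE 0.183, limma adjusted p = 0.00343), and both of its other probe sets rose at 18 h, by 1.04 and 1.05. At 6 h they stood 0.60 and 0.78 above vehicle and were not called (limma adjusted p = 0.104 and 0.111 with every probe set tested).

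PCDH7, a delta protocadherin with a tail that binds protein phosphatase 1, was late. It had 5.95, 6.22 and 9.58 in KO/LacZ cells under vehicle, 6 h and 18 h, against 5.92, 6.08 and 7.97 in KO/eIF4B cells. The 4 arrays of vehicle and 6 h lay within a narrow band and the 18 h arrays far above it. Its difference was 0.21 at 6 h (limma adjusted p = 0.749), 2.84 at 18 h (SE 0.390, limma adjusted p = 0.00307) and 2.63 between the times (limma adjusted p = 0.00834). The remaining 3 tested non-clustered genes were not called at any time. PCDH9 had 6.87, 6.30 and 7.45 in KO/LacZ cells, against 6.21, 6.37 and 6.50 in KO/eIF4B cells. PCDH1, an epithelial protocadherin, and PCDH12, known from endothelium and placenta, differed from vehicle at 18 h by -0.01 and -0.14.

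**Figure D2:**
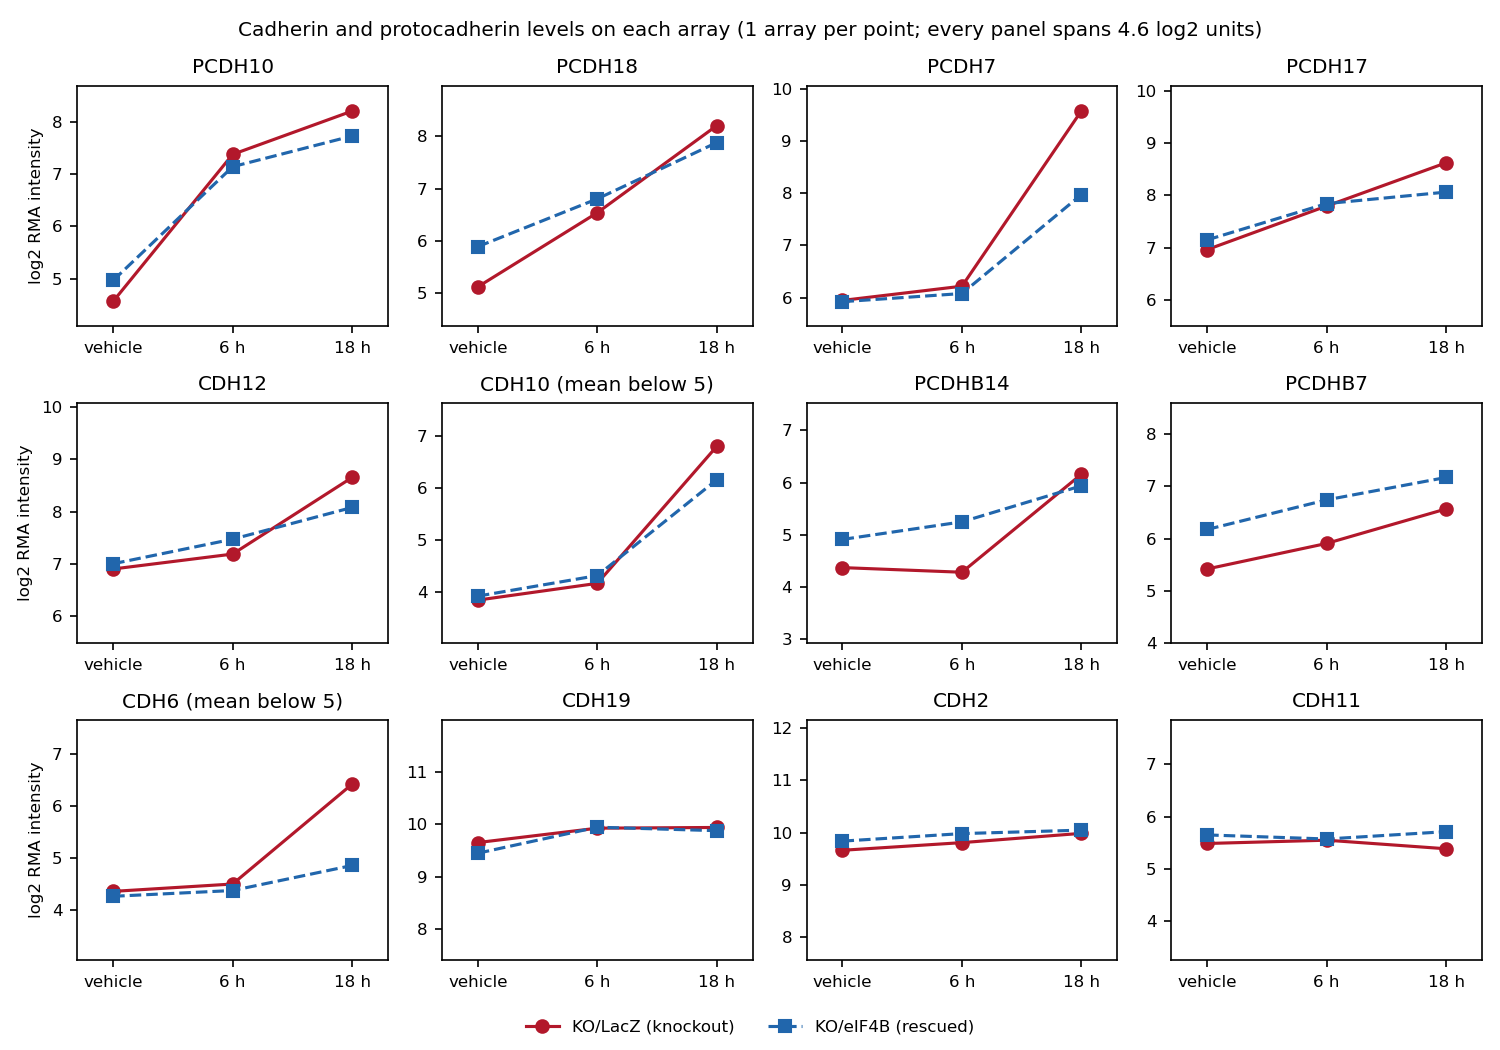
Log2 RMA intensity of 12 genes on each of the 6 arrays, by treatment, for KO/LacZ (red circles, solid lines) and KO/eIF4B (blue squares, dashed lines); each point is 1 array and each panel spans the same range. PCDH10 is already at 7.38 and 7.14 at 6 h, PCDH7 and CDH10 stay near their vehicle levels until 18 h, and CDH2 and CDH11 move little.

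In the beta cluster, 10 of 11 tested genes rose at 18 h, where 28.1% of all genes did. Of these 10 calls, 4 were kept without the KO/eIF4B vehicle array, 5 without the KO/LacZ vehicle or the KO/LacZ 18 h array, and 9 or 10 without another array. All 11 were above vehicle in the mean of both lines, with a median difference of 0.436. Counting the 4 dim genes, 14 of 15 were above vehicle. The largest rises, above 1 log2 unit, were in PCDHB14, PCDHB7, PCDHB5 and PCDHB8. PCDHB3, PCDHB11, PCDHB12 and PCDHB13 were represented by probe sets that can match related sequences, and signal from the near-identical beta genes may be shared among them.

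PCDHB5 had 8.07, 8.66 and 9.30 in KO/LacZ cells under vehicle, 6 h and 18 h, against 8.46, 9.12 and 9.28 in KO/eIF4B cells. It rose by 0.63 at 6 h (limma adjusted p = 0.0333) and by 1.03 at 18 h (SE 0.127, limma adjusted p = 0.00218). PCDHB7 had 5.42, 5.91 and 6.57 in KO/LacZ cells, against 6.18, 6.74 and 7.17 in KO/eIF4B cells. Within each line the 3 treatments of PCDHB7 were in order, and the lines overlapped across treatments. It rose by 0.53 at 6 h (limma adjusted p = 0.0151) and by 1.07 at 18 h (SE 0.077, limma adjusted p = 0.000556). PCDHB8 had 5.11, 5.55 and 6.28 in KO/LacZ cells and 5.49, 5.90 and 6.37 in KO/eIF4B cells, with a rise of 0.42 at 6 h (limma adjusted p = 0.0383) and of 1.03 at 18 h (limma adjusted p = 0.000858). These 3 genes were the beta members called at 6 h.

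PCDHB14 was another late gene. Its levels were 4.37, 4.28 and 6.16 in KO/LacZ cells and 4.91, 5.25 and 5.94 in KO/eIF4B cells, so that both 18 h arrays stood above the other 4. The difference was 0.12 at 6 h (limma adjusted p = 0.791) and 1.41 at 18 h (SE 0.270, limma adjusted p = 0.00915). Like PCDH10, it passed the filter with a vehicle mean below 5. PCDHB15, with a mean of 4.68, was not tested, but its arrays read 3.69, 4.20 and 5.22 in KO/LacZ cells and 4.48, 4.78 and 5.72 in KO/eIF4B cells. With no filter on dim genes its 18 h difference of 1.38 passed (limma adjusted p = 0.000647).

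The smaller rises at 18 h lay between 0.27 and 0.44. PCDHB11 had 6.74, 6.85 and 7.08 in KO/LacZ cells and 6.89, 7.25 and 7.42 in KO/eIF4B cells (difference 0.44, limma adjusted p = 0.00787). PCDHB6 had 7.89, 8.05 and 8.25 in KO/LacZ cells, against 7.94, 8.31 and 8.28 in the rescued line (0.35, limma adjusted p = 0.0177), and its second probe set, at 0.23, was not called. PCDHB13 had 6.89, 6.93 and 7.22 in KO/LacZ cells and 6.98, 7.10 and 7.26 in KO/eIF4B cells (0.30, limma adjusted p = 0.0124). In these genes both 18 h arrays exceeded both vehicle arrays.

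PCDHB2 had 8.57, 8.44 and 8.91 in KO/LacZ cells and 8.76, 8.84 and 9.00 in KO/eIF4B cells (difference at 18 h 0.29, limma adjusted p = 0.0434). PCDHB12 had 6.49, 6.58 and 6.93 in KO/LacZ cells, against 6.72, 6.83 and 6.88 in the rescued line (0.29, limma adjusted p = 0.0496). PCDHB3 had 7.26, 7.13 and 7.54 in KO/LacZ cells and 7.55, 7.46 and 7.82 in KO/eIF4B cells (0.27, limma adjusted p = 0.0141). The PCDHB3 arrays overlapped between treatments across lines, though each line was highest at 18 h. PCDHB16, with 6.29, 6.00 and 6.92 in KO/LacZ cells and 6.62, 6.56 and 6.88 in KO/eIF4B cells, missed the threshold against vehicle (0.44, limma adjusted p = 0.0518) and rose by 0.62 between 6 h and 18 h (limma adjusted p = 0.0279).

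**Figure D3:**
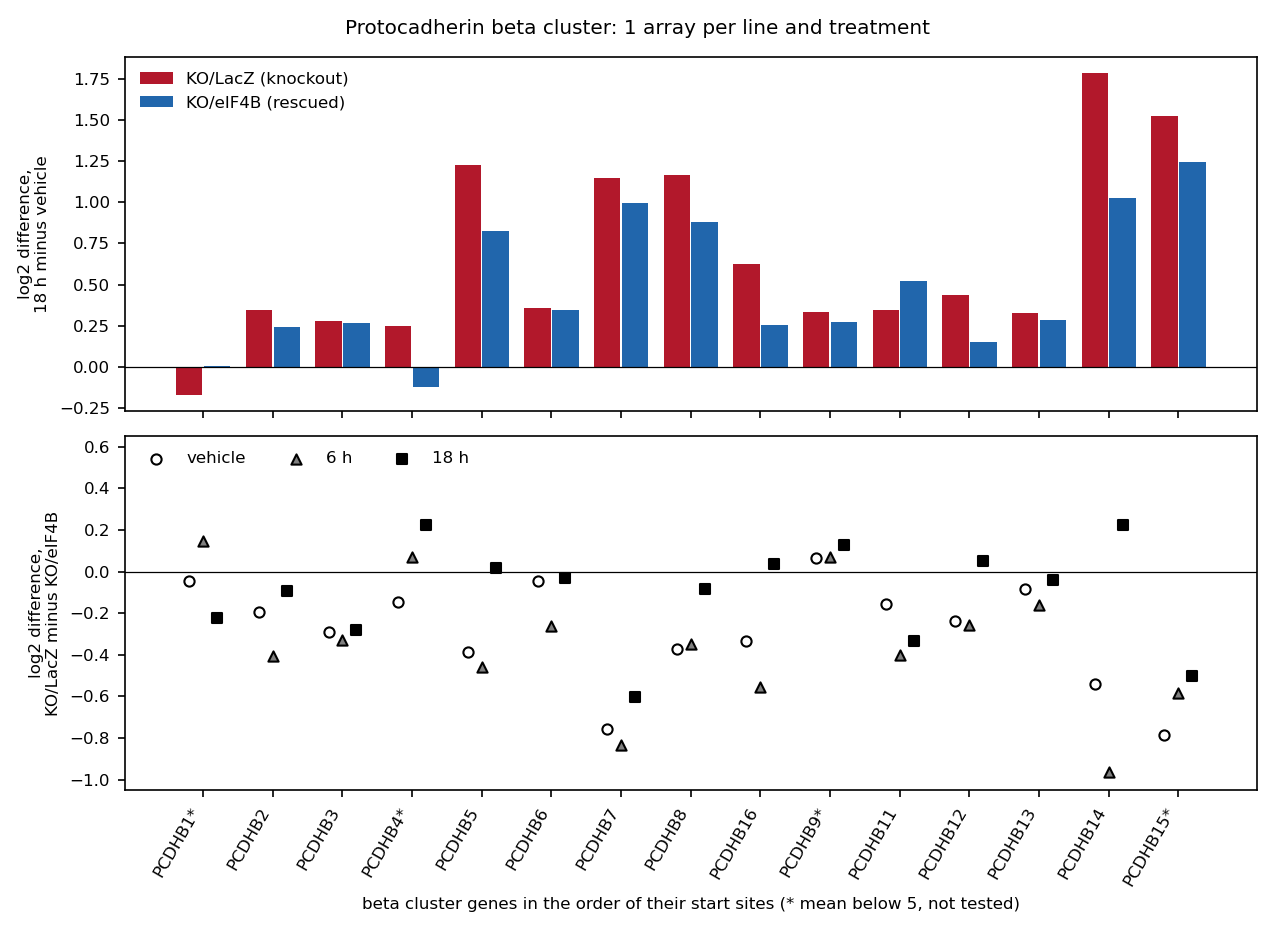
Upper panel: log2 difference of 18 h vemurafenib minus vehicle for the 15 beta cluster genes in the order of their start sites, in KO/LacZ (red) and KO/eIF4B (blue), 1 array for each value. Lower panel: KO/LacZ minus KO/eIF4B log2 difference on the vehicle (circles), 6 h (triangles) and 18 h (squares) arrays; under vehicle and at 6 h all 11 tested genes lie below 0, and at 18 h 7 do.

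The neighbouring alpha and gamma clusters gave few calls. Of the 3 tested alpha genes, PCDHA10, PCDHAC1 and PCDHA5, 0 were called, with differences at 18 h of 0.13, 0.03 and 0.01. Probe sets that carry the symbols of many alpha genes were higher at 18 h, but they name no gene here. Of 5 tested gamma genes 1 was called. PCDHGA9, at 5.81, 5.63 and 5.65 in KO/LacZ cells and 6.05, 5.80 and 5.78 in KO/eIF4B cells, fell by 0.21 at 18 h (SE 0.062, limma adjusted p = 0.0393), with both vehicle arrays above the other 4 by a narrow margin. PCDHGA3 (0.24), PCDHGB7 (0.03), PCDHGC3 (-0.14) and PCDHGB5 (-0.19) were not called. This PCDHGA9 call was kept in 0 of the 6 fits that each left out an array.

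Of 5 tested type II cadherins, 2 rose at 18 h. CDH12, a neural type II cadherin, had 6.91, 7.19 and 8.66 in KO/LacZ cells under vehicle, 6 h and 18 h, against 7.01, 7.48 and 8.08 in KO/eIF4B cells. Both 18 h arrays lay above all others. Its difference was 0.38 at 6 h (limma adjusted p = 0.274), 1.41 at 18 h (SE 0.207, limma adjusted p = 0.00371) and 1.04 between the times (limma adjusted p = 0.0178). CDH19, a cadherin of the Schwann cell and melanocyte lineage, had 9.65, 9.93 and 9.94 in KO/LacZ cells and 9.45, 9.95 and 9.88 in KO/eIF4B cells. It stood higher on every treated array than on both vehicle arrays, by 0.39 at 6 h (limma adjusted p = 0.0313) and 0.36 at 18 h (limma adjusted p = 0.0126), but its 2 other probe sets were not called. CDH11, the osteoblast cadherin of mesenchymal cells, had 5.48, 5.55 and 5.38 in KO/LacZ cells, against 5.65, 5.57 and 5.71 in the rescued line, and was not called at any time. CDH24 differed from vehicle at 18 h by 0.0046 on the probe set used for it, whereas its second one, with a mean of 5.66, rose by 0.77 at 18 h (limma adjusted p = 0.00526 with every probe set tested), so the 2 disagree.

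The type I cadherins moved little. CDH2, N-cadherin, had 9.66, 9.81 and 9.99 in KO/LacZ cells under vehicle, 6 h and 18 h, against 9.84, 9.98 and 10.05 in KO/eIF4B cells. Both 18 h arrays were above both vehicle arrays, and the rise was 0.27 (SE 0.064, limma adjusted p = 0.0198), with 0.30 on its second probe set. CDH1, E-cadherin, was dim throughout, at 2.94, 3.10 and 3.13 in KO/LacZ cells and 3.23, 3.24 and 3.21 in KO/eIF4B cells. CDH3, P-cadherin, had 5.38, 5.47 and 5.19 in KO/LacZ cells, against 5.41, 5.47 and 5.44 in KO/eIF4B cells, and was not called, nor was the muscle cadherin CDH15 (-0.13 at 18 h). The other cadherins tested were CDH23, of the hair cell tip link, at -0.19, and CDH26 at -0.02. They were not called.

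At 6 h, 7 of the 36 tested genes rose (19.4%) and 0 fell, where 16.2% of all genes were called, 7.34% higher and 8.82% lower. They were PCDH10, PCDH18, PCDH17, PCDHB5, PCDHB7, PCDHB8 and CDH19. The median difference was 0.062, against 0.029 over all genes tested. Only the PCDH10 call was kept whichever array was left out. Without a vehicle array, or without a 6 h array, 1 or 2 cadherins and protocadherins were called in place of 7. Between 6 h and 18 h, 10 of 36 rose (27.8%) and 0 fell, where 34% of all genes were called, 19% higher and 14.9% lower. These 10 were PCDH7, PCDH18, CDH12 and PCDHB14, PCDHB16, PCDHB8, PCDHB7, PCDHB3, PCDHB2 and PCDHB13, with differences from 2.63 down to 0.22. Without the KO/LacZ 6 h array 0 were called. The 6 h and 18 h comparisons share the vehicle arrays.

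Of the 17 rises at 18 h, 9 were kept in each of the 6 fits that left out an array. They were PCDH10, PCDH7, PCDH18, PCDH17, CDH12, PCDHB14, PCDHB5, PCDHB7 and PCDHB8, the same 9 that rose by at least 1 log2 unit. The count of rises was 10 without the KO/LacZ 18 h array, 11 without the KO/LacZ vehicle array and 10 without the KO/eIF4B vehicle array.

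Of the 29 genes with a mean below 5, 7 exceeded 5 on at least 1 array. They were CDH10, CDH6, PCDHB15, CDH16, PCDHGA10, PCDHGC4 and PCDHGA1. CDH10, a neural type II cadherin, had 3.85, 4.17 and 6.80 in KO/LacZ cells under vehicle, 6 h and 18 h, against 3.93, 4.32 and 6.16 in KO/eIF4B cells, so it left the dim range at 18 h in both lines. With no filter on dim genes, 18.7% of all 19775 genes rose at 18 h and 15.5% fell, and CDH10 rose by 2.58 (limma adjusted p = 0.000942). CDH6, the kidney cadherin, had 4.36, 4.50 and 6.41 in KO/LacZ cells and 4.27, 4.38 and 4.86 in KO/eIF4B cells. Its other probe sets stood 0.23 to 2.17 above vehicle at 18 h. On the probe set used, CDH6 rose by 1.32 in the same fit (limma adjusted p = 0.0428). PCDHGA4 rose there by 0.73 (limma adjusted p = 0.0189) and PCDHB9 by 0.30 (limma adjusted p = 0.0221). CDH5, the endothelial cadherin, fell by 0.64 (limma adjusted p = 0.00234) and PCDHGB6 fell by 0.28 (limma adjusted p = 0.0349), both at levels near the bottom of the scale.

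The other dim genes were PCDH8, PCDH15, PCDHGC5, CDH9, PCDH11X, PCDH19, CDH1, CDH20, CDH17, CDH18, PCDHB4, PCDHA2, CDH7, PCDHGA8, CDH8, PCDHAC2, PCDHB1 and PCDHA9. Their means ran from 1.95 for PCDH8 to 4.74 for PCDHA9. Next to the limit of 5, PCDHGA10 had a mean of 4.99 and CDH16 of 4.95, while CDH23 had 5.04 and PCDHB14 5.15 just above it.

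The comparison of the lines asked what differed between the knockout and the rescued line across treatments. Loss of eIF4B cannot be told apart here from eIF4B expression off the vector or from other differences between the lines. Of the 36 tested genes 0 were higher and 1 was lower in KO/LacZ than in KO/eIF4B cells, where 2.5% of all genes were called, 1.44% higher and 1.06% lower. PCDHB7 was lower in KO/LacZ cells, with a difference of -0.73 (SE 0.063, limma adjusted p = 0.0276), and KO/LacZ was below KO/eIF4B in all 3 pairs of arrays. This call was lost whichever array was left out. Of the 5 tested epithelial markers 1, KRT8, was also called between the lines (0.49), and its part in the result was not tested. PCDHB3 came next (-0.30, limma adjusted p = 0.0515). Its other probe sets, dim with means of 3.36 and 2.41, differed the other way, by 0.12 and 0.22. Of the 36 genes, 7 had a difference above 0, against 6961 of all 13506.

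All 11 tested beta cluster genes had a line difference below 0, from -0.10 to -0.73 with a median of -0.277, whereas 48.5% of all genes tested were below 0. With dim ones included, 2 of the 15 beta genes were above 0. Each of the 3 alpha, 5 gamma, 3 type I and 2 other cadherin genes tested was below 0 too, with medians from -0.076 to -0.13. Above 0 were 5 of 7 non-clustered protocadherins and 2 of 5 type II cadherins. Pair by pair, all 11 tested beta genes were lower in KO/LacZ cells under vehicle and at 6 h, and 7 were at 18 h, where differences ran from -0.60 to 0.22. With dim ones included, 14, 12 and 9 of 15 were lower. The shares of all genes below 0 were 46.9% under vehicle, 49.5% at 6 h and 47.7% at 18 h. Beyond PCDHB7 the differences did not pass the test gene by gene. PCDH1 (0.27, limma adjusted p = 0.128) and PCDH9 (0.51, limma adjusted p = 0.203) were higher in KO/LacZ cells without passing it.

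Whether the lines responded differently to the drug rests on 1 array per line and time, so at a single time the difference is a value with no test. At 18 h, PCDH7 was 3.63 above vehicle in KO/LacZ cells and 2.05 in KO/eIF4B cells, a difference of 1.58. PCDH18 was 3.09 above vehicle in KO/LacZ cells and 1.99 in KO/eIF4B cells, a difference of 1.09. Its KO/LacZ array stood 0.77 below the KO/eIF4B array under vehicle and 0.32 above it at 18 h. The second PCDH18 probe set went the other way, with responses of 0.50 in KO/LacZ and 0.64 in KO/eIF4B cells. On the probe sets used, PCDH7 and PCDH18 were the 2 of the 36 genes that reached 1 log2 unit in the direction of KO/LacZ. In the other direction 0 reached it, where 0.207% and 0.215% of all genes reached it in these directions. Among the dim genes CDH6 did so as well, with 2.05 in KO/LacZ cells and 0.59 in KO/eIF4B cells.

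PCDH10 differed between the lines by 0.88, PCDHB14 by 0.76, PCDH17 by 0.75, CDH10 by 0.72 and CDH12 by 0.67, each with the larger response in KO/LacZ cells. All 9 genes that rose by at least 1 log2 unit at 18 h had a larger response in KO/LacZ cells. Of all 634 such genes, 474 had (74.8%). Over the 36 genes the median difference in response was 0.103, with 27 above 0, against a median of 0.002 over all genes tested. At 6 h 0 of 36 reached 1 log2 unit either way, where 0.0074% and 0.141% of all genes did. On the probe sets used, PCDH10 stood at 0.64, PCDH18 at 0.50 and PCDH9 at -0.73.

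A term for the difference in response shared by both times left 1 residual degree of freedom. With limma it gave 0 calls among all 13506 genes after Benjamini-Hochberg adjustment, and 302 genes (2.24%) had an unadjusted p under 0.05. PCDH10 (0.76) and PCDH18 (0.80) were the 2 of 36 genes among them. On the other PCDH10 probe sets, with means of 4.74, 3.48 and 3.14, the responses differed by -0.08, 0.04 and 0.11 at 6 h. At 18 h these differed by 0.18, 1.82 and 1.23. On the second PCDH18 probe set the responses differed the other way, by -0.20 at 6 h and -0.14 at 18 h.

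**Figure D4:**
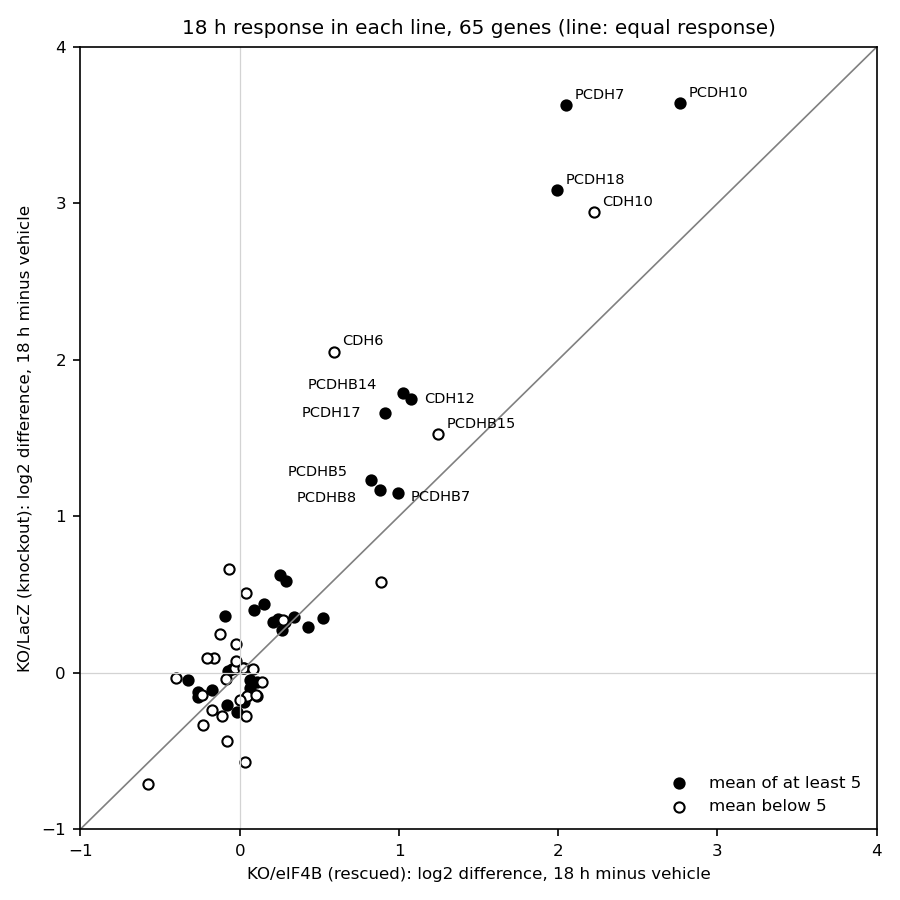
Log2 difference of 18 h vemurafenib minus vehicle in KO/LacZ (vertical axis) against KO/eIF4B (horizontal axis) for the 65 genes, 1 array for each value; filled points have a mean of at least 5. On the probe sets used, PCDH7, PCDH18 and CDH6 lie farthest above the line of equal response, by 1.58, 1.09 and 1.46.

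Of all 13506 genes, 28.1% rose and 23.3% fell at 18 h, and 7.34% rose and 8.82% fell at 6 h. Of 16 tested catenins and junction partners, 3 rose and 3 fell at 18 h, with a median difference of 0.009. They included NECTIN4, a nectin, which rose by 0.78, and PKP3, a desmosomal plakophilin, which rose by 0.65, while PKP4 fell by 0.51 and the alpha-catenin relative CTNNAL1 fell by 0.37 on the log2 scale. At 6 h 0 rose and 1 fell. Of the other genes of the cadherin superfamily, 8 of 13 tested rose at 18 h and 0 fell, with a median of 0.626, led by the desmosomal cadherins DSC2 (1.91) and DSC3 (1.39) and the planar polarity cadherins CELSR2 (1.64) and CELSR1 (1.14). At 6 h 2 rose and 0 fell.

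Of 7 tested repressors of classical cadherin genes, 3 rose and 3 fell at 18 h, where 28.1% of all genes rose and 23.3% fell. ZEB2 (1.66), TCF4 (1.42) and TWIST1 (0.67) rose, and ZEB1 fell by 1.19. The enzymes that cut cadherins, ADAM10 and gamma-secretase, were also followed. Of 7 tested genes of cadherin proteolysis and turnover, 4 rose at 18 h and 0 fell, namely the gamma-secretase subunits NCSTN (0.65), PSENEN (0.49) and APH1A (0.37) and the protease ADAM10 (0.25). At 6 h 0 of these 7 were called, where 16.2% of all genes were.

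Of 18 tested regulators and effectors of protocadherin clusters, 4 rose and 3 fell at 18 h and 0 were called at 6 h. Over all genes 28.1% rose and 23.3% fell at 18 h, and 16.2% were called at 6 h. CYFIP2, a WAVE complex subunit, rose by 1.68, and ABI1, another, by 0.40. The cohesin subunit STAG1 fell by 0.41 and the cohesin release factor WAPL fell by 0.36. CTCF, which is known to bind promoters of clustered protocadherins, was not called at 18 h (-0.17, limma adjusted p = 0.088). Between the lines 0 genes were called in each of these 5 lists, where 2.5% of all genes were.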

How the data were processed

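Total RNA from A375 cells was labelled with biotin and hybridised to Affymetrix arrays, per the labels' protocols. The authors deposited RMA intensity values on a linear scale, from 3.01 to 19000; the submitters' processing notes name RMA and affy, with no version (not given in the sources used here). The method scales all arrays to a common distribution and shrinks differences at both ends of the intensity range. The planned tests assumed log2 values, so log2 was taken here, with no pseudocount. The number of arrays limits the precision.

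Of 54675 probe sets, 62 were controls, 41091 carried 1 symbol in the platform annotation, 1801 several and 11721 none here. RefSeq's GRCh38.p14 table matched 41037 of the single-symbol ones, the other 54 stayed under their platform symbol, and 0 were renamed. Genes with a mean log2 of at least 5 were tested with limma 3.58.1 in R 4.3.3 (lmFit, eBayes), in an additive model of line and treatment over 6 arrays with 2 residual and 3.19 prior degrees of freedom. Contrasts were 6 h and 18 h against vehicle, 18 h against 6 h, and KO/LacZ against KO/eIF4B, with Benjamini-Hochberg adjustment and a threshold of 0.05. The code was tested on simulated data.

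The genes, lists, named-gene rule and tests were chosen with earlier results of these data known. Genes past the threshold, with CDH1, CDH2, CDH3, CDH11 and CDH19, were given with every array, other genes by range. Dim genes with large values were named after their values were seen. From the lists up to 4 called genes at 18 h were named. Genes with probe sets of several symbols only were not analysed here. Alternatives were the filter, every probe set, a pseudocount of 16, median shifts, an intensity trend, no term for the other factor, and leaving out each array.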

Additional observations from a re-analysis of the deposited data

Results flagged for a closer look

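Probe sets that carry several symbols were used for no gene, and 16 of them named a cadherin or protocadherin. Of these, 3 stood at least 1 log2 unit above vehicle at 18 h of vemurafenib in the mean of both lines, as values with no test. A probe set with 15 symbols of the alpha cluster was 1.12 higher. It read 7.41 and 7.07 on the 18 h arrays of KO/LacZ and KO/eIF4B cells, against 6.02 and 6.21 on their vehicle arrays. Another 2 probe sets with the same 15 symbols were 0.97 and 0.63 higher in KO/LacZ cells and 0.84 and 0.16 higher in KO/eIF4B cells, whereas the single-symbol alpha genes tested were not called. A probe set with 2 beta cluster symbols was 1.01 higher, at 6.45 and 6.54 on the 18 h arrays and 5.21 and 5.75 on the vehicle arrays of KO/LacZ and KO/eIF4B cells. A probe set shared by a non-clustered protocadherin and a non-coding RNA was 2.45 higher, by 3.34 in KO/LacZ and 1.57 in KO/eIF4B cells. Which of the transcripts behind these probe sets changed was not tested.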

How the results depend on the processing

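With another filter, every probe set, an intensity trend or no term for the other factor, a gene's difference and its sign cannot change. With a pseudocount of 16, median shifts or an array left out, 0 of the named genes' called differences changed sign. Over the 36 tested genes, uncalled ones included, median shifts moved the number above 0 from 25 to 22 at 18 h, from 26 to 24 at 6 h, from 24 to 21 between the times and from 7 to 8 between the lines. The 11 tested beta genes kept their direction at 18 h and between the lines with a pseudocount of 16 and with median shifts. The next counts take every difference of the named genes, called or not in the main fit. Kept includes differences called in neither fit, lost means a call that was dropped and gained a new call. Under the alternatives that kept all 6 arrays, 513 kept their side of the threshold, 39 lost it and 16 gained it. Under those that left out an array 415 kept it, 78 lost it and 11 gained it. At 18 h, 17 rises became 11 with no term for the line. The count of falls went from 1 to 2 with no filter, where the 2 were the dim CDH5 and PCDHGB6. The PCDHGA9 call was lost there (limma adjusted p = 0.0762). The count was 2 with median shifts, and 0 with a filter at 6, a pseudocount of 16, an intensity trend or no line term. At 6 h, 7 rises became 2 with no filter and 1 with no line term. Between 6 h and 18 h, 10 rises became 4 with no line term, and 0 falls became 2 with no filter. The 1 gene lower in KO/LacZ than in KO/eIF4B cells became 2 with a filter at 6, a pseudocount of 16, median shifts or the trend, and 0 with no treatment term. Leaving out each array in turn gave 10 to 18 rises and 0 to 0 falls at 18 h, 1 to 8 rises at 6 h, 0 to 13 rises and 0 to 1 falls between the times, and 0 to 0 genes lower in KO/LacZ cells. The fewer arrays or genes in these fits aside, the cause was not tested. The line term already compares treatments within each line. No paired analysis by replicate number was possible because each line and treatment has 1 array. Dim probe sets limit what can be said of the 29 genes with a mean below 5, and the number of arrays limits the rest.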
